A study of Mus musculus with 4 samples.

Results

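The transcriptome of lung CD11b+Ly6g+ myeloid-derived suppressor cells (MDSCs) from mice given FR17 was compared with that from mice given free TP5, with 1 mRNA library for each peptide, 2 of the 4 libraries of the series. TP5 is thymopentin, a pentapeptide with immune modulating activity. FR17 carries TP5 through a linker that matrix metalloproteinase 2 (MMP2) cleaves, on a short peptide backbone that assembles into lamellae, termed the nano-blanket, once the linker is cut. The comparison therefore asks what differs when the pentapeptide is given on the assembling carrier in place of the free form. Genes entered it with 10 or more counts in at least 1 of the 4 libraries, which held for 16369 of the 54532 genes in the table.

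All mice were C57BL/6 of 6 to 8 weeks and carried the pre-metastatic niche (PMN) model. In this model, melanoma-conditioned medium (MCM) from cultured B16F10 cells, a mouse melanoma line, was injected intraperitoneally at 300 μL per mouse on 10 consecutive days, and B16F10 cells were given through the tail vein on day 7. TP5, FR17 and sFD17 were each injected subcutaneously at 40 μM/kg/day, as the labels give the dose, from day 3, and lungs were taken on day 10. sFD17 is the assembling carrier with a scrambled pentapeptide, and Ctrl mice had the PMN model with no peptide. Dose and schedule were the same for both peptides, while pool and library differed with the peptide and cannot be told apart from it. Each library held the sorted cells of 10 to 12 pooled mice, so there was no replicate of any group, and every difference below is one between 2 libraries, without a p-value.

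MDSCs with the CD11b+Ly6g+ surface belong to the neutrophil lineage. They expand in tumor bearing hosts, collect in organs that will receive metastases and restrain T and NK cells there, through reactive oxygen species, prostaglandins and checkpoint ligands. Thymopentin is the active fragment of the thymic hormone thymopoietin and is known for promoting T cell maturation. Lung tissue around such cells also holds alveolar macrophages in the airspaces, interstitial macrophages around vessels and nerves, and lymphocytes, endothelium and fibroblasts.

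The main pattern was that genes of resident macrophages, complement, NK and T cells and vessel wall were higher in FR17 than in TP5. The neutrophil and NF-κB programs of the sorted cells were lower, as were most abundant genes in general. Levels are CPM, read counts scaled to library depth, with depth adjusted by the trimmed mean of M values (TMM), and differences are log2 CPM with a prior count of 2, FR17 minus TP5. The counting interval given beside a difference is the exact 95% interval of the ratio of the pair of counts and covers counting error only. At least 2-fold apart were 1153 genes that were higher in FR17, 7.04% of those tested, and 471 that were lower, 2.88%. Among all genes the median difference was -0.02, and the middle 50% lay between -0.30 and 0.30. The total was 17165184 counts in TP5 and 19638228 in FR17, and 3 counts, the limit for a gene without any, correspond to 0.171 and 0.131 CPM. Scaled by library size alone, the same threshold gave 1600 higher and 314 lower genes, so that 83.6% of the genes past it were higher instead of 71.0%. Relative to the median neutrophil marker, a centring chosen after the values were seen, 2211 genes were higher and 173 lower. Library size alone moves the median of all genes to 0.17, so list medians are read against that of all genes, and relative to it no list changed side under that scaling.

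The share of genes past 2-fold depended on expression level. Among the 2922 genes with a mean level of up to 1 CPM over the 4 libraries, 18.5% were at least 2-fold higher in FR17 and 9.24% lower. Between 10 and 30 CPM the shares were 2.65% and 0.743%, and above 100 CPM they were 0.482% and 0.268%. The median difference moved with the level as well, from 0.16 among the lowest genes to -0.27 among the 1866 genes above 100 CPM, of which 17.1% were higher in FR17. Most of the abundant genes of these cells thus lay below 0, and the genes past 2-fold were mainly of low level, as the bars by expression level show.

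**Figure D1:**
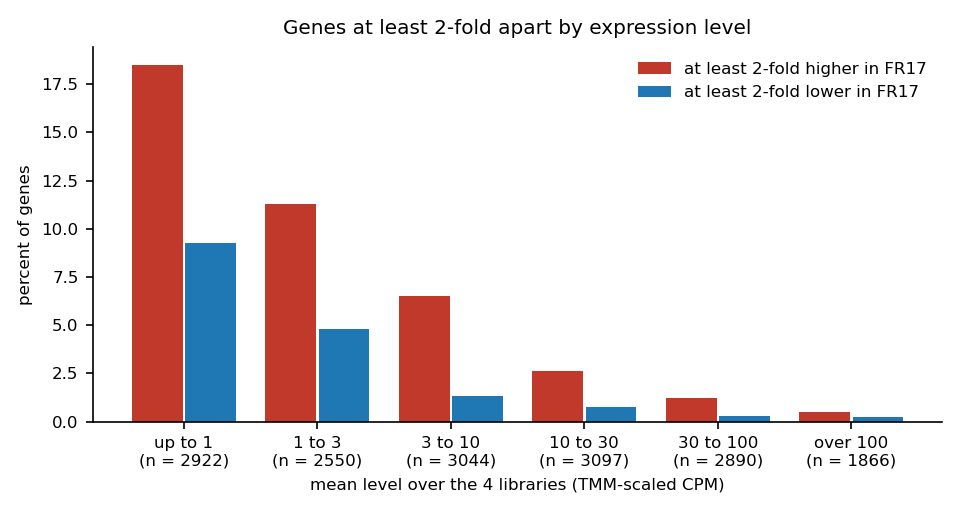
Percent of genes at least 2-fold higher (red) or lower (blue) in FR17 than in TP5, vertical axis, in 6 ranges of mean level in TMM-scaled CPM, horizontal axis, with 1 library per peptide. The higher genes outnumber the lower ones in every range, and both shares fall from the lowest range (18.5% and 9.24%) to the highest (0.482% and 0.268%).

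Set among all 4 libraries, the genes that were higher in FR17 than in TP5 were of mixed kinds. FR17 was the highest of the 4 for 922 of the 1153, and TP5 was the lowest of the 4 for 719 of them. These counts describe the genes only, since choosing them by FR17 above TP5 already favours both orders. Of the 471 lower genes, FR17 was the lowest for 359 and TP5 the highest for 232. A difference between these 2 libraries can therefore come with an FR17 level above Ctrl, a TP5 level below Ctrl, or both, and the Ctrl and sFD17 levels are given beside the main genes for that reason.

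The sorting markers were close in both libraries. Itgam, which encodes CD11b, had 370 CPM in TP5 and 302 in FR17, with 381 in Ctrl and 433 in sFD17, a difference of -0.30 (-0.34 to -0.25). In its longest transcript 72.4% of 50-base windows are shared with the overlapping gene Gm49368, and reads there may be split between the pair. Ly6g had 97.8 CPM in TP5 and 90.7 in FR17, a difference of -0.11 (-0.20 to -0.02), which is 0.08 when scaled by library size alone. Of the 20 neutrophil markers, which include both S100 calprotectin genes, all 20 were lower in FR17, with a median of -0.37 and a summed level of 47340 CPM in TP5 and 37140 in FR17. None of them was 2-fold apart, and all genes above 100 CPM had a median of -0.27, with 17.1% of them above 0.

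Markers of other lung cells were detected in both libraries, and several lists were higher in FR17. Their summed level moved from 5894 CPM in TP5 to 10030 in FR17 for interstitial and serosal macrophages, from 1681 to 2557 for alveolar macrophages, from 74.9 to 239 for NK cells, from 157 to 293 for T cells, and from 311 to 571 for endothelium. In Ctrl and sFD17 these sums were 8749 and 3855 CPM for interstitial and serosal macrophages and 2092 and 926 for alveolar macrophages. They were 90.6 and 104 for NK cells, 151 and 117 for T cells, and 441.6 and 364.5 for endothelium. For lung epithelium the sum in TP5 and FR17 was 1471 and 1135, for dendritic cells 1488 and 1188, and for B and plasma cells 731 and 685. The plot of summed markers shows that the order of the libraries differs from list to list. Fewer cells of a type in the sorted pool and less RNA per cell cannot be told apart in such bulk samples, and the part of carried-over cells in the differences that follow was not tested.

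**Figure D2:**
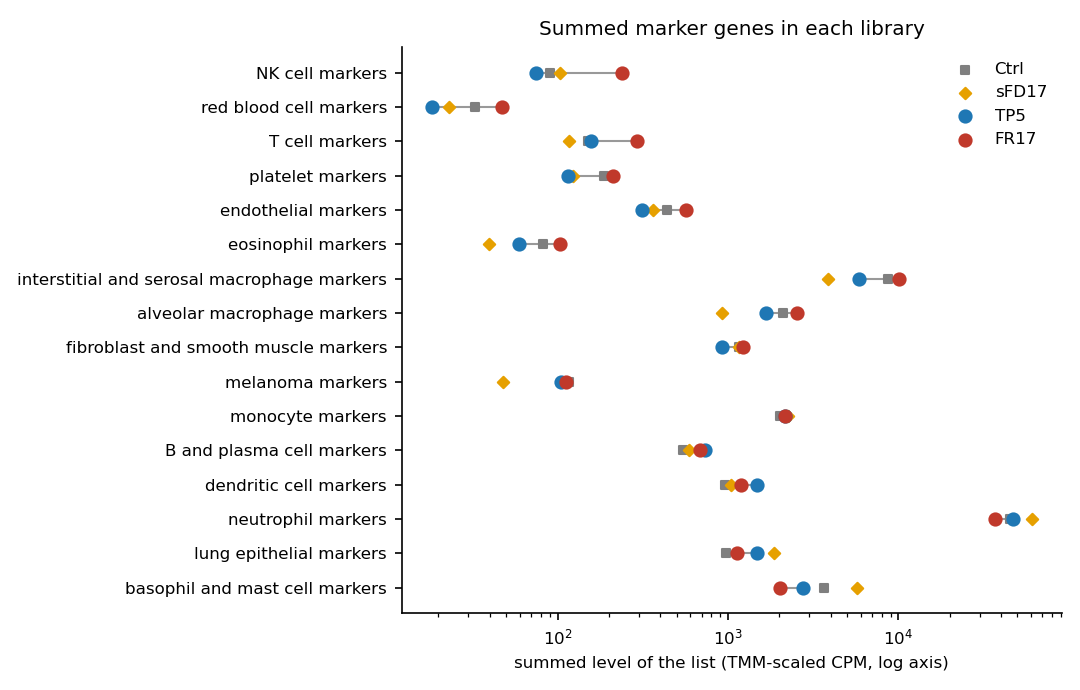
Summed level of each marker list in TMM-scaled CPM (horizontal log axis) in the 4 libraries, 1 symbol per library, with a line from TP5 (blue) to FR17 (red). NK cell (74.9 to 239 CPM), T cell, endothelial and macrophage lists lie to the right in FR17, while neutrophil (47340 to 37140 CPM), dendritic cell and lung epithelial lists lie to the left.

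Many genes of resident macrophages were higher in FR17. Promoters are shown first for 2 clusters of neighbouring genes: the C1q cluster on chromosome 4, whose genes had like differences, and the Cd209 lectin cluster on chromosome 8, whose genes went in both directions. The sequences are RefSeq windows of GRCm38.p6, from 250 bases before to 50 after the gene start, read 5′ to 3′ on the gene's strand. C1qb lies at chr4:136886151-136886450 (minus strand), C1qc at chr4:136892865-136893164 (minus), Cd209f at chr8:4105715-4106014 (minus), Cd209g at chr8:4134486-4134785 (plus) and Cd209e at chr8:3854237-3854536 (minus). Capitals mark matches, on either strand, to GAGGAA, a core bound by the myeloid factor PU.1, in the C1q windows and to TGACTCA, the AP-1 element, in the Cd209 windows.
C1qb: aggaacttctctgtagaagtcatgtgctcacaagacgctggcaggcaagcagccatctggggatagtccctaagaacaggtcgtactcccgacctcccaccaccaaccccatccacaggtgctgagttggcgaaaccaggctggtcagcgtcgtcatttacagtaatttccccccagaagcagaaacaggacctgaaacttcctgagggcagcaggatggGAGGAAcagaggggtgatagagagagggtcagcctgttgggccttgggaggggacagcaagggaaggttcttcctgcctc
C1qc: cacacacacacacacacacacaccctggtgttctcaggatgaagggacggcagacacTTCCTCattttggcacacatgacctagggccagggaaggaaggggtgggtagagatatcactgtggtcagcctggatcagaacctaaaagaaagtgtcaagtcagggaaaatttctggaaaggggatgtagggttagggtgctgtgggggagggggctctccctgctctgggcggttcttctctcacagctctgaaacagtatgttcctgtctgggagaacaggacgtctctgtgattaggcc
Cd209f: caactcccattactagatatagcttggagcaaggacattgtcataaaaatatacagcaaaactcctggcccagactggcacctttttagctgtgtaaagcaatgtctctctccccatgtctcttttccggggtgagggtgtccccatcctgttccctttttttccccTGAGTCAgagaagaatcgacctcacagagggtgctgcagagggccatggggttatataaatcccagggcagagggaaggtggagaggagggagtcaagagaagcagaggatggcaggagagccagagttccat
Cd209g: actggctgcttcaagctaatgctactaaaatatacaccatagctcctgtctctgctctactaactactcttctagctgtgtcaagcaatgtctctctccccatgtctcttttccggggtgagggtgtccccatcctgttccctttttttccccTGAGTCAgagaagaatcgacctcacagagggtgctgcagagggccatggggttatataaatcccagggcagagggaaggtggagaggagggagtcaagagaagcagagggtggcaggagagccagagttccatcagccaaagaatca
Cd209e: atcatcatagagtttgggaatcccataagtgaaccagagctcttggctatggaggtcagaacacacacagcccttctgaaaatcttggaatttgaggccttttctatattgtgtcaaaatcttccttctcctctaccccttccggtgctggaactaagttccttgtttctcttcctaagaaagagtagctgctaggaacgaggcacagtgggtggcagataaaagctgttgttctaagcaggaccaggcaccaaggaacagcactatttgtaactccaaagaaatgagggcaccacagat

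GAGGAA is found in 28.3% of the 32851 mouse promoter windows of this length and TGACTCA in 5.20%, and these motifs, with TGCTGAC, a Maf half-site without a match in the 5 windows, were chosen after the expression values were known. The match lies at -30 in C1qb, at -193 in C1qc, at -83 in Cd209f and at -97 in Cd209g. In the Cd209f and Cd209g windows it falls inside a run of 180 bases that is identical in both. The Cd209e window holds neither that run's match nor the other motifs. Such a match is a description of letters and not a binding site.

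C1qa, C1qb and C1qc encode the chains of C1q, the recognition molecule of the classical complement pathway, which resident macrophages make. C1qa had 409 CPM in TP5 and 896 in FR17, with 726 in Ctrl and 215 in sFD17, a difference of 1.13 (1.09 to 1.17). C1qc had 334 and 689 CPM, a difference of 1.05 (1.00 to 1.09). C1qb had 410 and 839 CPM, a difference of 1.03 (0.99 to 1.07). All 3 were highest in FR17 and lowest in sFD17. Among the 598 genes with at least 5000 counts in both libraries the median difference was -0.30, and 4 were at least 2-fold higher: these 3 and Selenop, which encodes a secreted selenium carrier. Selenop had 468 CPM in TP5 and 987 in FR17, with 863 in Ctrl and 246 in sFD17, a difference of 1.08 (1.04 to 1.12).

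The mannose receptor Mrc1 (CD206), an endocytic receptor of tissue macrophages, had 334 CPM in TP5 and 618 in FR17, a difference of 0.89 (0.85 to 0.93). The genes that mark perivascular and serosal macrophages were further apart. Folr2, a folate receptor, had 10.8 CPM in TP5 and 42.3 in FR17, with 33.7 in Ctrl and 5.76 in sFD17, a difference of 1.96 (1.74 to 2.20). Lyve1, a hyaluronan receptor, differed by 1.80 (1.67 to 1.95), from 29.1 to 102 CPM. Gas6, a bridging ligand by which macrophages take up dying cells, also differed by 1.80 (1.68 to 1.92). The haemoglobin scavenger receptor Cd163 had 1954 counts in TP5 and 6812 in FR17, and Timd4, a phosphatidylserine receptor, 177 and 632. All 21 interstitial and serosal macrophage markers were above 0, 10 of them at least 2-fold, with a median of 0.98. Cd68, a lysosomal protein of the phagocyte lineage, was the lowest of the list at 0.07, and the growth factor receptor Csf1r was at 0.15, so the list did not move as 1 block.

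The Cd209 cluster held 6 tested genes for C-type lectins related to DC-SIGN, and they differed in direction. Cd209f had 7.93 CPM in TP5 and 60.5 in FR17, with 44.3 in Ctrl and 4.85 in sFD17, a difference of 2.92 (2.68 to 3.20). Cd209g had 3.59 and 26.4 CPM, a difference of 2.84 (2.50 to 3.28). Both stood in the same order, with FR17 highest and sFD17 lowest, and their longest transcripts share 25.9% and 13.9% of 50-base windows with each other. Cd209b was at 0.88 and Cd209d at -0.14. Cd209a, a marker of monocyte-derived dendritic cells, was lower in FR17 by -0.59 (-0.67 to -0.51), and Cd209e had 11.5 CPM in TP5 against 3.96 in FR17, a difference of -1.51 (-1.91 to -1.17). For Cd209e the TP5 library was the highest, and Ctrl and sFD17 had 3.20 and 3.86 CPM. Cd209b, Cd209d and Cd209e were picked for this family after their values were seen.

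Alveolar macrophage genes were higher too. Of 21 markers 20 were above 0 and 10 were at least 2-fold higher, with a median of 0.91. Fabp1, a fatty acid binding protein, had 3.76 CPM in TP5 and 17.2 in FR17, with 8.58 in Ctrl and 0.682 in sFD17, a difference of 2.16 (1.81 to 2.59). Ear1, an eosinophil-associated ribonuclease, differed by 1.64 (1.42 to 1.87), though 57.4% of its windows are shared with relatives such as Ear2, which was at 0.16. Krt79, a keratin, had 29.3 and 85.1 CPM, a difference of 1.54 (1.40 to 1.68). Itgax (CD11c), an integrin that dendritic cells also carry, was the exception at -0.35. Fpr3, a formyl peptide receptor, had 12 counts in TP5 and 121 in FR17, with 15 in Ctrl and 24 in sFD17, a difference of 2.76 (2.09 to 3.94).

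The complement list, which includes the 3 C1q genes, also had most of its members above 0. Of the 19 tested, 16 were above 0 and 11 were at least 2-fold higher, with a median of 1.05, and the 16 outside C1q had a median of 0.89. C6, a component of the membrane attack complex, had 0.912 CPM in TP5 and 7.58 in FR17, with 7.05 in Ctrl and 1.74 in sFD17, a difference of 2.91 (2.31 to 3.89). C4b, which encodes the C4 protein of the classical and lectin pathways, had 69.8 and 295 CPM, with 321 in Ctrl and 51.2 in sFD17, a difference of 2.08 (1.99 to 2.17). In both genes FR17 lay near Ctrl, and TP5 lay far below it. C2, the protease partner of C4, was at 2.25 (1.52 to 3.50), but 58.0% of its windows are shared with the overlapping gene Gm20547. C4b shares 35.2% of its windows with its paralog C4a, which had 45 and 31 counts. The first-component proteases C1ra and C1s1 were at 1.49 and 1.31 and the C1 inhibitor Serping1 at 1.49. The 3 genes below 0 were the C5a receptor genes C5ar1 (-0.30) and C5ar2 (-0.22) and C3 (-0.21), which encodes the central component of the cascade, while the C3a receptor gene C3ar1 was at 0.52.

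**Figure D3:**
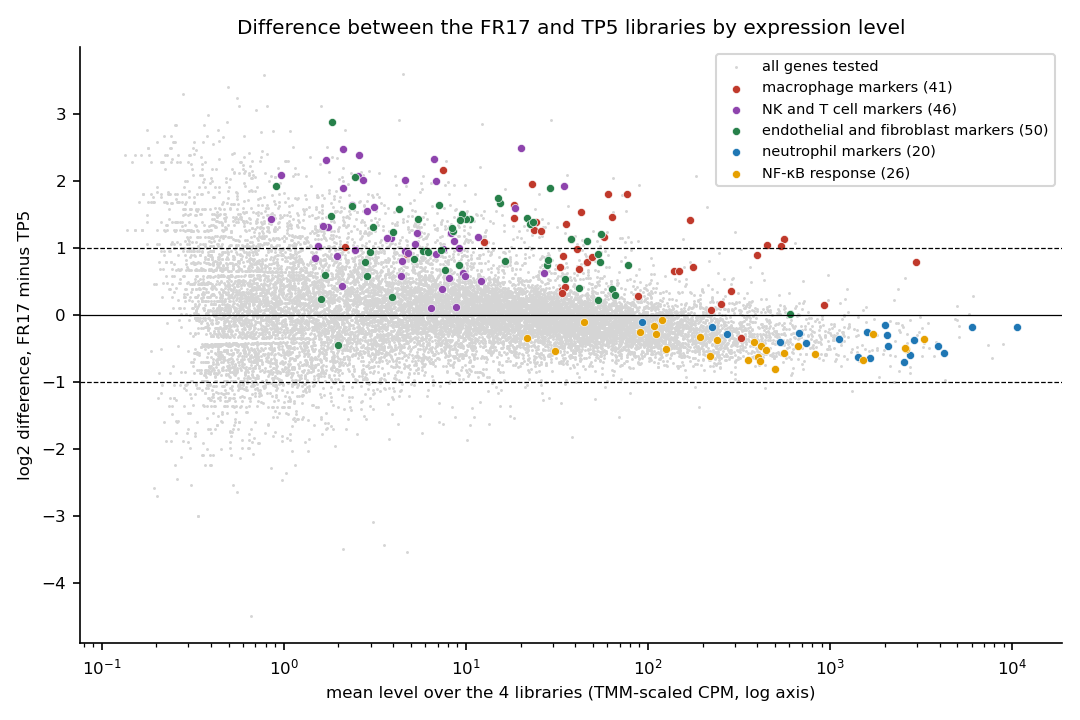
Log2 difference, FR17 minus TP5 (vertical axis), against the mean level over the 4 libraries in TMM-scaled CPM (horizontal log axis) for the 16369 genes tested (grey), with 5 groups of list genes in colour. Dashed lines mark 2-fold. Macrophage, NK, T, endothelial and fibroblast markers lie mostly above 0, while the abundant neutrophil markers (median -0.37) and NF-κB genes (median -0.48) all lie below it.

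Chemokines, the ligands that guide leukocytes, differed by type of gene. CC, XC and CX3C chemokines had a median of 0.70, with 7 of 17 at least 2-fold higher, and CXC chemokines a median of 0.89, with 5 of 13. Taken relative to the median of all genes, the CC, XC and CX3C median was 0.73, and it was 0.29 over members with at least 10 counts in every library. Ccl8, a monocyte attractant made by macrophages, had 28.5 CPM in TP5 and 118 in FR17, with 92.3 in Ctrl and 17.9 in sFD17, a difference of 2.04 (1.91 to 2.18). Its neighbours on chromosome 11, Ccl7, Ccl12 and Ccl2, were at 1.63, 1.27 and 1.04, and all 4 of these monocyte attractants were lowest in sFD17. Ccl5, which NK and T cells release, had 15.3 and 58.3 CPM, a difference of 1.93 (1.74 to 2.13). Pf4, the platelet factor that tissue macrophages also transcribe, had 37.2 and 129 CPM, with 103 in Ctrl and 18.7 in sFD17, a difference of 1.79 (1.67 to 1.91). Ppbp, its platelet partner, was at 1.53 (0.99 to 2.25) and Cxcl14 at 1.35 (0.85 to 1.97). The lymphoid chemokine gene Ccl21a had 0 counts in TP5 and 18 in FR17.

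The most abundant chemokine genes went the other way. Cxcl2, the neutrophil attractant that neutrophils themselves make, had 120978 counts in TP5 and 101222 in FR17, a difference of -0.65, and Ccl3 was at -0.67. Summed over the list, CXC chemokines therefore stood lower in FR17, at 4977 CPM against 7307, although 11 of the 13 genes were higher. Chemokine receptors had a median of 0.15. The scavenging receptor Ackr3 had 2.68 CPM in TP5 and 10.8 in FR17, with 9.06 in Ctrl and 3.33 in sFD17, a difference of 1.96 (1.55 to 2.49). Cxcr6, a receptor of tissue-resident T and NK cells, was at 1.12 (0.74 to 1.57), and the eosinophil receptor Ccr3 at -1.04 (-1.47 to -0.66), or -0.85 when scaled by library size alone. Main receptors of neutrophils and monocytes were lower, with Cxcr2 at -0.43, Ccr1 at -0.50 and Ccr2 at -0.62, while Cx3cr1, of monocytes and macrophages, was at 0.29.

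Adhesion molecules and chemoattractant receptors, the machinery by which myeloid cells leave blood, were mostly lower. Of 38 genes 27 were below 0, with a median of -0.30, close to that of the neutrophil markers and to the -0.27 of all genes above 100 CPM. Itga4, the α4 integrin chain of VLA-4, had 5823 counts in TP5 and 3942 in FR17, a difference of -0.95. Its ligand gene Vcam1 had 29.9 CPM in TP5 and 64.7 in FR17, with 62.4 in Ctrl and 16.9 in sFD17, a difference of 1.11 (0.97 to 1.26). Icam2, an adhesion molecule of endothelium and platelets, was at 1.01 (0.80 to 1.23), and Icam1 at -0.69. At least 2-fold higher were 3 of the 38, Fpr3, Vcam1 and Icam2, beside 7.04% of all genes.

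NK cell genes had the largest median of the 43 lists, except that with a prior count of 0.5 the red blood cell list, at 1.98 relative to all genes, stood just above it. All 20 tested were higher in FR17, 16 of them at least 2-fold, with a median of 1.91. Gzma, which encodes the cytotoxic protease granzyme A, had 8.38 CPM in TP5 and 47.5 in FR17, with 14.6 in Ctrl and 10.4 in sFD17, a difference of 2.49 (2.25 to 2.76). Ncr1 (NKp46), an activating receptor, had 13 counts in TP5 and 106 in FR17, a difference of 2.47 (1.80 to 3.60). Eomes, the transcription factor of mature NK cells, had 15 and 114 counts, a difference of 2.39 (1.76 to 3.42). FR17 was the highest library for each of the 3, and perforin, Prf1, stood at 52 counts in TP5 and 352 in FR17. Most genes of this list had a mean level under 10 CPM, where 6.54% to 18.5% of all genes were at least 2-fold higher.

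T cell genes were higher with a smaller size. All 26 were above 0 and 11 at least 2-fold higher, with a median of 0.96. Foxp3, the transcription factor of regulatory T cells, had 8 counts in TP5 and 53 in FR17, with 10 in Ctrl and 7 in sFD17, a difference of 2.09 (1.26 to 3.62). The receptor chain Cd3e was at 1.61 (1.13 to 2.22), while Cd3d was at 0.11. Cd4 had 192 counts in TP5 and 760 in FR17, a difference of 1.59 (1.37 to 1.83). Cd8a had 33 and 59 counts, and Cd8b1 18 and 62. Genes of type 2 lymphocytes had a median of 0.36 over 18 genes. Klrg1, an inhibitory lectin, was at 1.38 (0.81 to 2.12), and Gata3, the transcription factor of type 2 cells, at 1.22 (0.70 to 1.86), while the cytokine gene Il13 had 24 and 14 counts. Il17a, the cytokine of type 17 lymphocytes, had 10 and 48 counts. Ifng, the interferon that NK and type 1 T cells make, had 17 counts in TP5 and 56 in FR17, a difference of 1.24.

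B lineage genes did not move as a group. The 23 genes had a median of -0.04, with 2 at least 2-fold higher and 1 lower, beside 7.04% and 2.88% of all genes. Ms4a1 (CD20) had 604 and 475 counts and Cd79b, a chain of the B cell receptor, 533 and 556 counts, which are -0.73 and -0.33 after scaling. Genes that plasma cells express went in both directions, and no separate list of them was used. Tnfrsf17, the survival receptor BCMA, had 4 counts in TP5 and 50 in FR17, with 17 in Ctrl and 1 in sFD17, a difference of 2.75 (1.81 to 5.19). Jchain, the joining chain of secreted immunoglobulin A and M, had 11.1 and 20.3 CPM, a difference of 0.86 (0.62 to 1.11). The immunoglobulin A constant gene Igha, looked up after these, had 38.6 and 112 CPM, a difference of 1.54 (1.42 to 1.66).

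Single immunoglobulin gene segments were far apart in both directions. Of 107 tested variable segments, 43 (40.2%) were at least 2-fold higher in FR17 and 15 (14%) lower, against 7.04% and 2.88% of all genes. Among genes of up to 1 CPM the shares were 18.5% and 9.24%, and the part of low levels in the segment shares was not tested. Igkv5-43 had 15 counts in TP5 and 111 in FR17, though 51.2% of its windows are shared with other segments, and another segment had 31 and 144. In the other direction Ighv8-8 had 115 and 11 counts, and Ighv5-17 had 165 and 23, with 13 and 15 in Ctrl and sFD17. The constant segment Iglc3 had 104 and 38 counts, a difference of -1.77 (-2.42 to -1.29). For Ighv8-8, Ighv5-17 and Iglc3 the TP5 library stood alone above the other 3.

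Mast cell proteases had few counts and large differences. Cma1, a mast cell chymase, had 5 counts in TP5 and 77 in FR17, with 24 in Ctrl and 18 in sFD17, a difference of 3.12 (2.27 to 5.22), the furthest above 0 among protein-coding genes with at least 50 counts in either library. Mcpt4, another chymase, had 1 and 44 counts, Tpsb2, a tryptase, 7 and 47, and Cpa3, a carboxypeptidase, 19 and 90. Of the basophil genes, Prss34 was at 1.43 (1.04 to 1.91) and Mcpt8 at 0.48. The 14 basophil and mast cell markers had a median of 0.88, while their summed level was lower in FR17 at 2009 CPM against 2769, because Hdc, the histamine-forming enzyme that neutrophils also express, had 47794 counts in TP5 and 44552 in FR17. Relative to the median of all genes this list stood at 0.90, and at 0.41 over members with at least 10 counts in every library. Eosinophil genes were mixed, with the granule proteins Epx at 3 and 29 counts and Prg2 at 0.73 (0.34 to 1.17), and the receptor Il5ra at -0.59.

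Endothelial, fibroblast and smooth muscle genes were higher as well. All 23 endothelial markers were above 0 and 17 at least 2-fold higher, with a median of 1.42. Ednrb, an endothelin receptor of aerocytes, had 12.0 CPM in TP5 and 44.7 in FR17, with 49.3 in Ctrl and 9.47 in sFD17, a difference of 1.89 (1.68 to 2.12). Plvap, the diaphragm protein of fenestrated vessels, was at 1.74 (1.46 to 2.06), and Sox17, an arterial transcription factor, had 11 and 68 counts. Ednrb and Sox17 were not highest in FR17 but in Ctrl. Pecam1 (CD31), which myeloid cells also carry, was the lowest of the list at 0.22.

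Of 27 fibroblast and smooth muscle markers 26 were above 0 and 8 at least 2-fold higher, with a median of 0.83. Wnt2, a ligand of lung fibroblasts, had 6 counts in TP5 and 74 in FR17, with 62 in Ctrl and 2 in sFD17, a difference of 2.87 (2.05 to 4.73). Des, the muscle filament desmin, was at 1.57 (1.10 to 2.17) and Inmt, a methyltransferase of alveolar fibroblasts, at 1.38 (1.18 to 1.61). The collagen genes Col1a1 and Col3a1 were at 0.79 and 0.74. Red blood cell genes had a median of 1.71 over 9 genes, from few counts: Hbb-bs had 77 and 394 counts and Hbb-bt, which shares 58.3% of its windows with it, 12 and 78. Platelet markers had a median of 0.39. Lung epithelial markers had a median of -0.22 and went both ways, with the airway secretory gene Bpifa1 at -1.53 (-1.66 to -1.41) and the surfactant gene Sftpc at 17.1 CPM in TP5 and 42.3 in FR17.

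**Figure D4:**
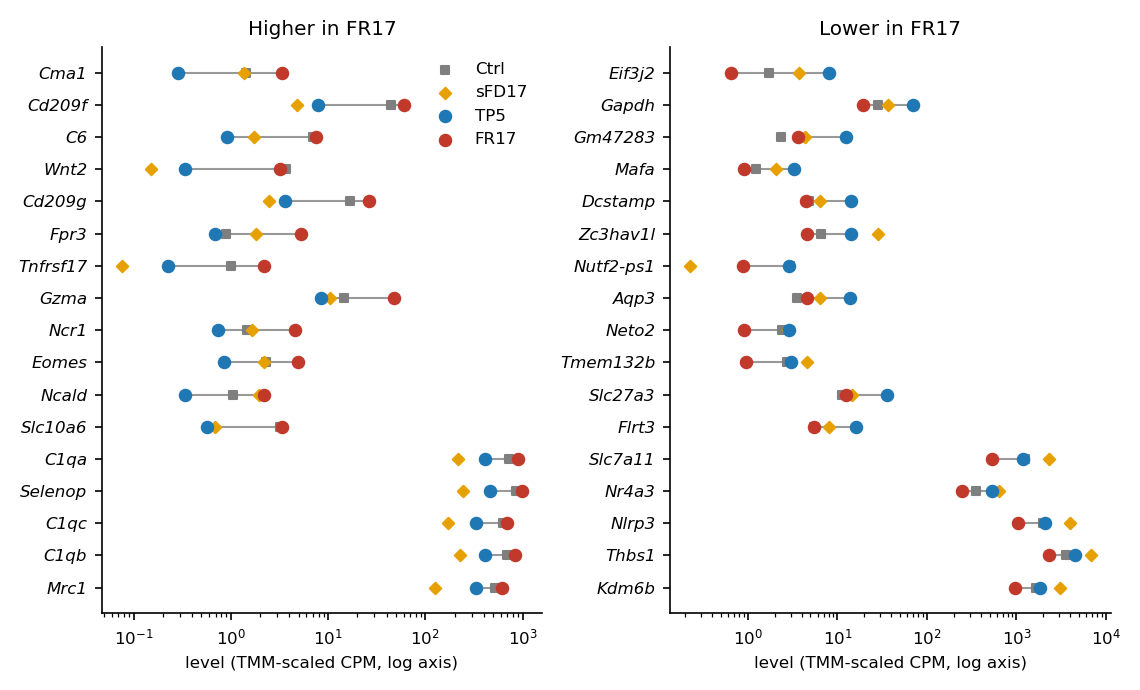
Level in TMM-scaled CPM (horizontal log axis) of the genes with the largest differences, 1 gene per row and 1 symbol per library, with a line from TP5 (blue) to FR17 (red): the 12 protein-coding genes furthest apart among those with at least 50 counts in FR17 or TP5, then the 5 furthest apart among those with at least 5000 counts in both. C1qa moved from 409 to 896 CPM, and Eif3j2 from 8.15 to 0.653.

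Turning to the program of the sorted cells, the NF-κB response was lower throughout. All 26 of its genes were below 0, with a median of -0.48, though none was 2-fold apart. Of these genes 16 were below the neutrophil marker median of -0.37. All genes above 100 CPM had a median of -0.27, with 17.1% of them above 0. Rel, an NF-κB subunit, had 569 CPM in TP5 and 325 in FR17, with 472 in Ctrl and 636 in sFD17, a difference of -0.81 (-0.85 to -0.76). Icam1, a ligand of leukocyte integrins, was at -0.69 (-0.74 to -0.63) and Marcksl1, an actin-binding protein, at -0.67 (-0.70 to -0.64). FR17 was the lowest of the 4 libraries for all 3 and sFD17 the highest. The inhibitor genes Nfkbia and Tnfaip3 were at -0.36 and -0.49.

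Among genes with at least 5000 counts in both libraries, the 5 furthest below 0 were Slc7a11, Nr4a3, Nlrp3, Thbs1 and Kdm6b. Slc7a11, the cystine transporter that feeds glutathione synthesis, had 1175 CPM in TP5 and 532 in FR17, with 1233 in Ctrl and 2328 in sFD17, a difference of -1.14 (-1.18 to -1.11). Nr4a3, an orphan nuclear receptor induced early after stimulation, was at -1.09 (-1.14 to -1.04). Nlrp3, the sensor of the inflammasome that activates interleukin-1β, had 2083 and 1041 CPM, just at the 2-fold limit (-1.02 to -0.98). Thbs1, the matrix protein thrombospondin-1, had 4531 and 2304 CPM, a difference of -0.98 (-0.99 to -0.96), and Kdm6b, a histone H3K27 demethylase, 1826 and 956 CPM, a difference of -0.93 (-0.96 to -0.91). Scaled by library size alone, Slc7a11 was at -0.95, Nr4a3 at -0.89 and Nlrp3 at -0.81, so none of the 5 was past 2-fold. In all 5 the order was the same at both ends, with FR17 lowest and sFD17 highest.

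Immediate early genes, which stimulated cells and dissociated tissue transcribe within minutes, were less uniform. Of 28, 20 were below 0, with a median of -0.23 and 2, Egr3 and Nr4a3, at least 2-fold lower. Scaled by library size alone they were at -0.97 and -0.89, and neither was past 2-fold. Egr3 had 96.4 CPM in TP5 and 43.0 in FR17, a difference of -1.16 (-1.28 to -1.05), and Fosl1 was at -0.96 (-1.09 to -0.84). Jun, a subunit of AP-1, was at 0.60 and Klf2, a factor of quiescent leukocytes, at 0.53, so members of one dimer family differed in direction. Pattern recognition genes had a median of -0.24, with the C-type lectins Clec4d at -0.65 (-0.68 to -0.63) and Clec4e at -0.63 (-0.66 to -0.60). Trem1, which amplifies neutrophil responses, was the lowest neutrophil marker at -0.71 (-0.73 to -0.69).

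The effector genes of MDSCs lay where abundant genes in general did. Of 24, 20 were below 0, with a median of -0.26, beside a median of -0.27 and 17.1% above 0 among all genes above 100 CPM, and 9 lay below the neutrophil marker median. Ptgs2, the cyclooxygenase that makes prostaglandin E2 precursors, had 2759 CPM in TP5 and 1512 in FR17, with 2894 in Ctrl and 3817 in sFD17, a difference of -0.87 (-0.89 to -0.85). Prok2, a secreted protein of neutrophils, had 72 and 44 counts, a difference of -1.06 (-1.67 to -0.54), which is -0.87 when scaled by library size alone. Il10, the anti-inflammatory cytokine, was the 1 gene at least 2-fold higher, with 15.7 and 35.6 CPM, 36.0 in Ctrl and 17.3 in sFD17, a difference of 1.17 (0.98 to 1.38). S100a8 and S100a9 were at -0.18 each.

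Granule genes, which neutrophil precursors transcribe, had a median of -0.32, with 18 of 21 below 0, also near the -0.27 of all genes above 100 CPM. Olfm4, of a granule subset, was at -0.69 (-0.82 to -0.57) and Mmp25, a membrane metalloproteinase, at -0.50 (-0.58 to -0.42). Chil3, a chitinase-like protein that alveolar macrophages make in quantity, was at 0.55 (0.54 to 0.57), with 29.4% of its windows shared with Chil4 and others, and Lyz2 was at 0.27. In sum the granule list held 28970 CPM in TP5 and 27170 in FR17.

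Cytokine genes had a median of 0.07, with 9 of 35 at least 2-fold higher and 2 lower, beside 7.04% and 2.88% of all genes. Among genes of up to 1 CPM those shares were 18.5% and 9.24%. Relative to all genes the cytokine median was -0.11 over members with at least 10 counts in every library. Csf2 (GM-CSF), a growth factor of alveolar macrophages, had 11 counts in TP5 and 62 in FR17, a difference of 1.93. Tgfb2 had 2.22 and 8.23 CPM, with 11.3 in Ctrl and 0.834 in sFD17, a difference of 1.84 (1.39 to 2.43), and the death ligand Tnfsf10 (TRAIL) was at 1.40 (0.90 to 2.03). Csf3 (G-CSF), the growth factor of neutrophils, was lower at 412 and 221 counts, a difference of -1.28. The abundant cytokines followed the neutrophil markers, with Il1b at -0.44 and the receptor antagonist Il1rn at -0.65. Among checkpoint genes, with a median of 0.01, the ligand Pdcd1lg2 (PD-L2) was at -0.97 (-1.36 to -0.63) and Cd274 (PD-L1) at -0.42, while the T cell receptors Icos and Tigit were at 0.83 (0.55 to 1.14) and 0.77 (0.14 to 1.52).

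The medians of the interferon programs differed in sign. Type I interferon response genes had a median of -0.24, with 37 of 49 below 0 and none 2-fold apart. All genes between 30 and 100 CPM had a median of -0.12, and those above 100 CPM one of -0.27. The antiviral gene Rsad2 had 144 CPM in TP5 and 77.8 in FR17, with 148 in Ctrl and 839 in sFD17, a difference of -0.89 (-0.98 to -0.80). Slfn4, a schlafen gene of myeloid cells, was at -0.79 (-0.81 to -0.76) and the exonuclease gene Isg20 at -0.74 (-0.86 to -0.63). The GTPases and regulators induced by interferon-γ had a median of 0.33, with 17 of 21 above 0 and 4 at least 2-fold higher. Iigp1, an immunity-related GTPase, had 2.22 CPM in TP5 and 11.4 in FR17, with 11.3 in Ctrl and 6.37 in sFD17, a difference of 2.30 (1.87 to 2.88). The guanylate-binding proteins Gbp6 and Gbp4 were at 1.57 (0.91 to 2.50) and 1.40 (1.07 to 1.80), with 59.7% of the windows of Gbp6 shared with relatives. For Iigp1, Gbp4 and Gbp6 FR17 stood at or near the Ctrl level and TP5 below it.

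MHC class I genes were mostly slightly higher. Of 19 genes 18 were above 0, with a median of 0.22 and none 2-fold apart, and the nonclassical genes H2-Q7, H2-Q6 and H2-M3 were highest at 0.68, 0.63 and 0.58. H2-Q6 and H2-Q7 share 32.0% and 27.1% of their windows with other H2 genes. MHC class II genes, which present antigen to helper T cells, had a median of -0.10, with 10 of 12 below 0 and H2-DMb2 furthest at -0.36 (-0.48 to -0.24). Dendritic cell markers were lower, with a median of -0.22, Flt3 at -0.85 (-1.03 to -0.69) and Wdfy4, which cross-presentation needs, at -0.67 (-0.72 to -0.62). The migratory dendritic cell gene Fscn1 was at 0.63 (0.43 to 0.84).

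Monocyte markers had a median of -0.32 with 1 gene far off. F13a1, coagulation factor XIII, which macrophages also make, had 117 CPM in TP5 and 357 in FR17, with 297 in Ctrl and 79.1 in sFD17, a difference of 1.61 (1.54 to 1.68). Of the 10 markers 7 were below 0, with Ms4a4c at -0.98 (-1.14 to -0.82) and Treml4, of nonclassical monocytes, at -0.79 (-0.88 to -0.71). Csf1r and Cx3cr1, also on this list, were above 0 along with F13a1.

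**Figure D5:**
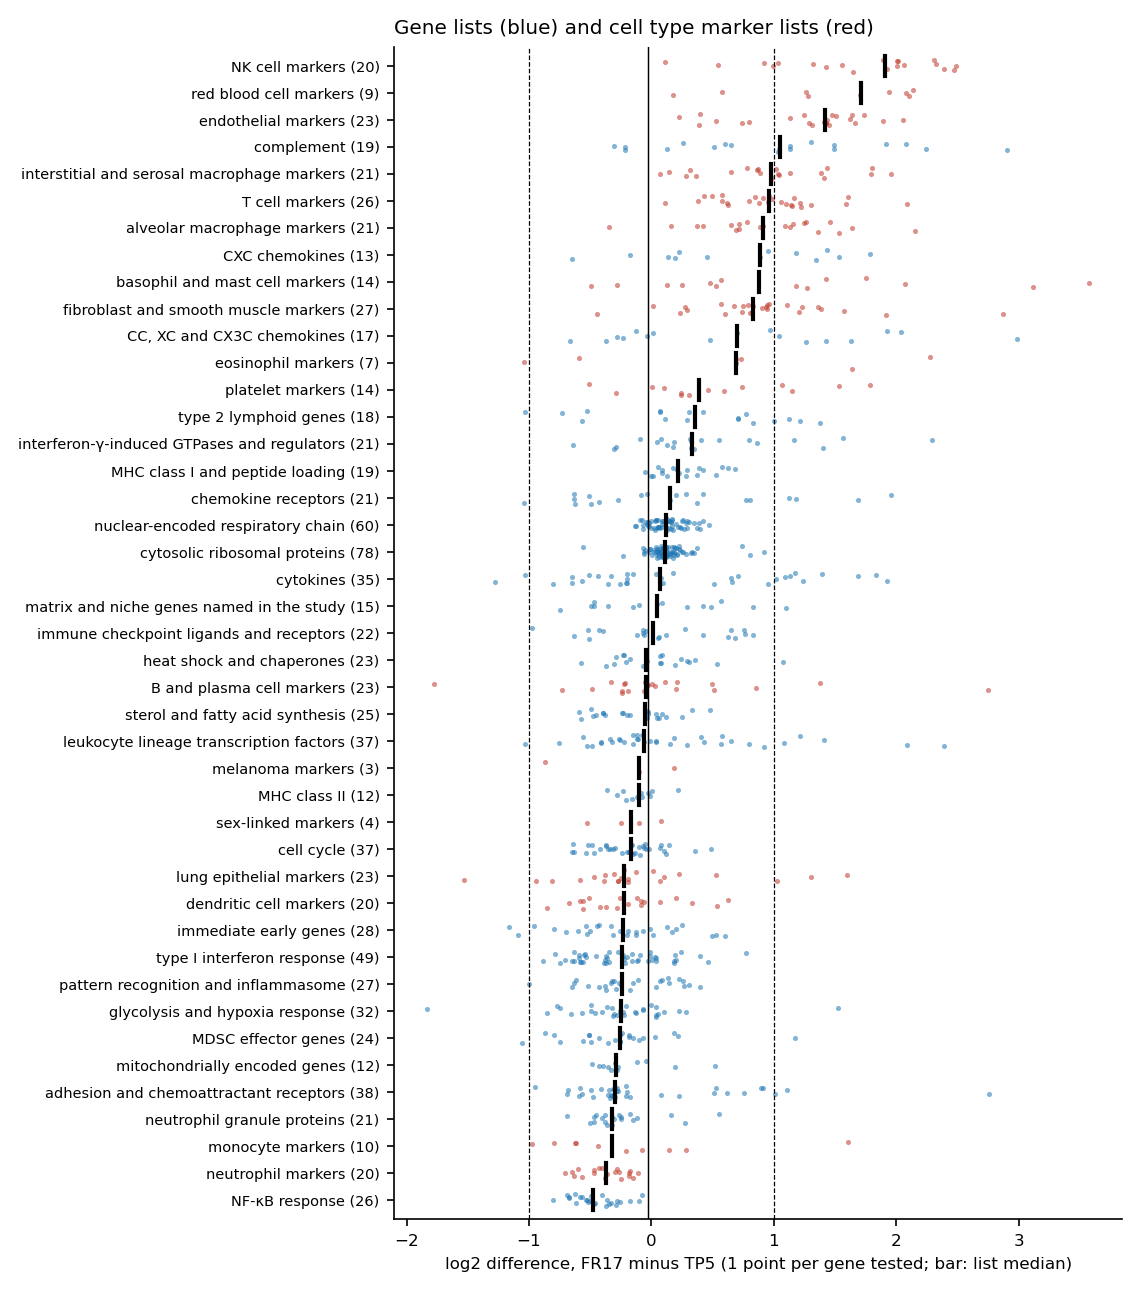
Log2 difference, FR17 minus TP5 (horizontal axis), of every tested member of the 43 gene lists, 1 point per gene, ordered by the list median (black bar), with the number tested in brackets. Red lists are cell type markers and blue lists are other groups, the solid line is the median of all genes and dashed lines mark 2-fold. NK cell markers (1.91, with a prior count of 2) stand at the top and the NF-κB response (-0.48) at the bottom.

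The study follows the proteins of 15 matrix and niche genes in lung tissue, those of Nos2 and Arg1 only over the course of the model. Here their mRNA was read in the sorted cells. Of the 15 genes, 1 was at least 2-fold higher and none lower, beside 7.04% and 2.88% of all genes. Cd34, of vessels and progenitors, had 111 counts in TP5 and 314 in FR17, a difference of 1.10 (0.80 to 1.44). The matrix genes Postn, Lox, Fn1 and Vcan were at 0.83, 0.57, 0.09 and -0.47, and the mesenchymal genes Acta2 and Vim at 0.29 and 0.05. The matrix proteases Mmp2 and Mmp9 differed in sign, at 0.43 (0.12 to 0.75) and -0.47 (-0.49 to -0.44). The angiogenic factor Vegfa had 199 CPM in TP5 and 118 in FR17, a difference of -0.75 (-0.82 to -0.68), and Angpt2, with 24 and 45 counts, was at 0.49. Of the immune mediators, Tgfb1 was at -0.36 (-0.41 to -0.30) and Arg1, with 303 and 281 counts, at -0.49 (-0.74 to -0.26). Il6 was at -0.15 (-0.26 to -0.05) and Nos2, with 10 and 12 counts, at -0.10 (-1.46 to 1.24). The counting intervals of Angpt2 and Nos2 included 0, and Il6 and Nos2 were at 0.04 and 0.06 when scaled by library size alone.

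Housekeeping programs had medians on both sides of 0. Cytosolic ribosomal protein genes had a median of 0.11, with 69 of 78 above 0, and nuclear-encoded respiratory chain genes a median of 0.12, with 46 of 60. Rps27a was furthest at 0.92, and 40.6% of its windows are shared with pseudogenes. Mitochondrially encoded genes had a median of -0.29 and glycolysis and hypoxia genes one of -0.25. Cell cycle genes were lower in 30 of 37, with a median of -0.17 and Mki67, a marker of dividing cells, at -0.65 (-0.74 to -0.56). Sterol and fatty acid synthesis genes had a median of -0.05 and heat shock genes one of -0.04. Lineage transcription factors had a median of -0.06, with 5 of 37 at least 2-fold higher and 1 lower, beside 7.04% and 2.88% of all genes. The higher ones included Eomes, Foxp3, Gata3 and Maf, a factor of macrophages and T cells, at 1.09, and the lower one was Gata1, a factor of red blood cell and mast cell lineages, at -1.03 from 13 and 7 counts.

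Several of the genes furthest below 0 have near copies in the genome. Eif3j2, a subunit gene of the translation factor eIF3, had 143 counts in TP5 and 15 in FR17, with 29 in Ctrl and 49 in sFD17, a difference of -3.43 (-4.52 to -2.87). It shares 91.8% of its windows with other genes, mainly its paralog Eif3j1, which had 620 and 823 counts and a difference of 0.02. Gapdh, a glycolytic enzyme, had 69.2 CPM in TP5 and 19.4 in FR17, with 28.7 in Ctrl and 36.7 in sFD17, a difference of -1.83 (-2.00 to -1.68), and 27.2% of its windows are shared with pseudogenes. Its neighbours in the pathway were near the list median, with Pgk1 at -0.26 and Eno1 at -0.13. Gm47283 on chromosome Y (-1.76) and Nutf2-ps1 (-1.62) share 56.4% and 96.1%. The pseudogenes Gm10705, at 18 and 313 counts, and Gm12411, at 146 and 14, were the furthest apart outside protein-coding genes among those with at least 100 counts in FR17 or TP5 and share 85.4% and 100% of their windows. For these genes the counts may be split with their copies.

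Lower genes with little or no shared sequence had modest levels, most often highest in TP5. Dcstamp, which macrophages need to fuse, had 14.1 CPM in TP5 and 4.49 in FR17, with 4.86 in Ctrl and 6.37 in sFD17, a difference of -1.63 (-2.00 to -1.32). Aqp3, a water and glycerol channel, had 13.9 and 4.53 CPM, with 3.49 in Ctrl, a difference of -1.60 (-1.96 to -1.28). Slc27a3, an acyl-CoA synthetase, had 36.1 and 12.3 CPM, with 11.1 in Ctrl, a difference of -1.54 (-1.76 to -1.35). Flrt3, an adhesion protein, had 280 counts in TP5 and 125 in FR17, and FR17 was level with Ctrl in CPM. Mafa (-1.71), Neto2 (-1.56), Tmem132b (-1.55) and Zc3hav1l (-1.63) complete the 12 protein-coding genes furthest below 0. Of these 8 genes TP5 was the highest library for 6, the exceptions being Tmem132b and Zc3hav1l, where sFD17 was. Choosing genes by FR17 below TP5 favours that order, and TP5 was the highest for 49.3% of the 471 lower genes.

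Higher genes outside the groups above were few among the 12 furthest apart. Ncald, a neuronal calcium sensor, had 6 counts in TP5 and 51 in FR17, with 18 in Ctrl and 26 in sFD17, a difference of 2.36 (1.48 to 4.21). Slc10a6, a transporter of sulphated steroids, had 10 and 77 counts, with 54 in Ctrl and 9 in sFD17, a difference of 2.34 (1.60 to 3.67). The other 10 of the 12 were described above.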

How the data were processed

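According to the labels, mRNA libraries were made from FACS-sorted cells of 10 to 12 mice each. The deposited values are read counts for each gene, left unnormalized by the authors, on GRCm38.p6. Their processing notes name HISAT2 2.0.5, StringTie 1.3.3b, featureCounts 1.5.0-p3 and edgeR 3.18.1, without roles, and whether the counting used strand is not given in the sources used here. Columns were matched to samples by group name. GENCODE M21 holds 54495 of the identifiers. For the 100 symbols found on several rows, the most counted row was taken.

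Counts were scaled with edgeR 4.0.16 (R 4.3.3) by TMM over the 4 libraries, with depths of 15543071 to 19638228 counts, and FR17 minus TP5 was taken from log2 CPM. A gene was called at a difference of at least 2-fold. With 1 library per group the quasi-likelihood test cannot be fitted, so no gene is given a p-value for the treatments. The procedure was tested on simulated data. Lists (43, with 964 symbols, of which 17 lists are markers) are described by counts and medians. The share of ribosomal RNA reads was 0.0312% in TP5 and 0.0583% in FR17.

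Named were the 12 protein-coding genes furthest apart in each direction (at least 50 counts in FR17 or TP5), the 5 in each direction among those with at least 5000 counts in both, 3 per list, the sorting and niche genes, and the 3 in each direction outside protein-coding genes with at least 100 counts. Some genes that this rule selects are left out of the text. Other list members were picked as examples after their values were seen. The comparison, lists and rule were chosen with earlier results of these data known. Shared windows are those 50-base windows of a gene's longest GENCODE M21 transcript that also occur in a transcript of another gene. Promoters are from RefSeq, which has no entry for C1qa or Lyve1 in the table used. Alternatives were DESeq2 1.42.0 size factors, library size alone, TMM over the pair, other filters, a prior of 0.5, other thresholds and edgeR's exact test. Figures were drawn with matplotlib 3.10.9.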

Additional observations from a re-analysis of the deposited data

How the results depend on the processing

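Counts of genes at least 2-fold higher and lower in FR17 were 1153 and 471 as reported, and differed by no more than 1.5 times with DESeq2's size factors, library size alone, TMM over the pair and a prior count of 0.5. They were 2009 and 1432 without a filter, 544 and 170 with at least 10 counts in every library, and 524 and 103 with at least 50 counts in FR17 or TP5, where fewer genes enter. Requiring the whole counting interval past 2-fold left 281 and 58, and a 1.5-fold threshold gave 2356 and 1651. By edgeR's exact test with the dispersion of the 4 libraries taken as 1 group (biological coefficient of variation 0.268), 480 and 117 genes had an unadjusted p under 0.05, and 15 genes passed Benjamini-Hochberg adjustment. That test compares these libraries and not the treatments. Taken relative to the median neutrophil marker, an alternative chosen after seeing the data, 2211 genes were at least 2-fold higher and 173 lower.

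Relative to the median of all genes, 243 of the recomputed list medians kept side and size, 13 moved, and 2 changed side, both with at least 10 counts in every library: cytokines at -0.11 and heat shock at 0.01. With that filter the CC, XC and CX3C chemokines were at 0.29 (0.73 as reported) and the basophil and mast cell markers at 0.41 (0.90 as reported), and without the most abundant member the melanoma markers were at -0.46 (-0.08 as reported). The other medians that moved did so by less than 1.5 times. Of the named genes, 5 changed sign when scaled by library size alone: Mitf to 0.09, Eif2s3y to 0.09, Il6 to 0.04, Nos2 to 0.06 and Ly6g to 0.08. That scaling also took 6 of the genes named by rule back under 2-fold: Slc7a11 (-0.95), Nr4a3 (-0.89), Nlrp3 (-0.81), Egr3 (-0.97), Prok2 (-0.87) and Ccr3 (-0.85). With TMM over the pair Nlrp3 was at -0.95. No paired analysis was possible because each group has 1 library. Depth limits genes of few counts, and pooling hides the spread between mice.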

Other observations

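The sex-linked genes Ddx3y, Uty and Eif2s3y stood at -0.52, -0.24 and -0.10, FR17 minus TP5, and Kdm5d at 0.08, all on chromosome Y and detected in both pools. Of 11 melanoma markers 6 had no count in TP5 and 5 none in FR17, and 3 could be tested: Gpnmb, which macrophages also express, was at 0.19, Mitf at -0.10 and Pmel, with 38 and 26 counts, at -0.87. Ribosomal RNA reads were 5355 in TP5 and 11443 in FR17, against 4997 in Ctrl and 4967 in sFD17, almost all on CT010467.1. Among gene classes, 11.9% of 481 lincRNAs and 8.68% of 726 processed pseudogenes were at least 2-fold lower in FR17, against 1.57% of 13505 protein-coding genes. The shares at least 2-fold higher were 6.86%, 5.23% and 6.94%. Among genes of any class with a mean level of up to 1 CPM, 9.24% were lower, and the part of low levels in the class shares was not tested.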
